A study of Apis mellifera with 79 samples.

Results

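The 100 genes described here are those whose transcript levels moved most closely with Kr-h1 (GB43022, kruppel homolog 1) from one single brain to the next within colonies of the honey bee. Of 11525 genes in the 4 deposited tables, 11151 were in both tables of single bees, and 8281 of these averaged at least 3 log2 CPM (read counts scaled to a common library size, on a log2 scale) in each. In each of those tables the mean of a bee's colony was subtracted, Pearson r with Kr-h1 was taken over 30 bees, and the genes were ranked by the smaller of the forager and the nurse r. Kr-h1 and the other 15 genes of a set of 16 brain transcription factors that the study picked from its field foragers were left out, which left 8266 genes, and the first 100 were kept. The members were thus chosen by their correlation in these 60 bees, so everything said of that correlation is a description without a test. Kr-h1 itself averaged under the level minimum in nurses and would not have passed the filter.

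Brains of worker bees were sequenced in a field study and in an apiary experiment, each with foragers and nurses. In the apiary experiment each library was 1 brain, and 5 foragers and 5 nurses were taken from each of 6 queen-right colonies at day 30. The exposed colonies C21, C23 and C28 received a pollen supplement with clothianidin, a neonicotinoid insecticide, at 4.9 ppb in week 1, lowered to 2.0 ppb by week 5, and the unexposed colonies C25, C26 and C27 received the supplement without it. In the field study each library was a pool of 5 brains of 1 colony and caste. Exposed pools (5 of foragers, 5 of nurses) came from 1 site near neonicotinoid-treated corn and unexposed pools (5 of foragers, 4 of nurses) from 1 site at least 3 km from agriculture, so exposure and site cannot be told apart there. By the study's methods, pollen of the exposed site held the neonicotinoids clothianidin and thiamethoxam. The miticide coumaphos was found at both sites, the fungicide pyraclostrobin at the exposed one, and the fungicides carboxin and imazalil and the herbicide diuron at the unexposed one. No strain, genotype or age of the bees is given in the sources used here, and foragers were taken as pollen carriers and nurses as bees with the head in a larval cell.

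Kr-h1 encodes a zinc finger transcription factor that is induced by juvenile hormone in insects. In Drosophila it also acts with the ecdysone response and in the remodelling of neurites. Honey bee workers nurse brood when young and forage later, and juvenile hormone in the blood rises along that path. The Official Gene Set 3.2 identifiers of the members could not be paired with gene names in the sources used here, so the members are given by identifier and no role is assigned to them.

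GB45950 had the highest rank, with r = 0.77 in foragers and 0.75 in nurses. GB47464 followed with r = 0.70 and 0.76, GB54315 with 0.71 and 0.69, and GB40892 with 0.69 and 0.69. The median r of the members was 0.55 in foragers and 0.61 in nurses, and their smaller r ran from 0.48 to 0.75. The last gene inside the cut was GB42088 (r = 0.482 in foragers, 0.720 in nurses), and the first outside was GB54041 (0.482 and 0.590), so the border did not fall at a gap. The forager r was the smaller one for 69 members and the nurse r for 31. Of the 100 genes with the highest r in foragers alone 48 were members, and of the 100 with the highest r in nurses alone 27 were. Only 14 genes were in both of these lists of 100. The members are therefore genes fairly close to Kr-h1 in both castes, and few of them were among the closest in both.

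The spread of Kr-h1 between bees of a colony was wide. In foragers of C21 it ran from 2.58 log2 CPM in bee C21-F3 to 5.19 in C21-F1, and in foragers of C28 from 1.84 in C28-F5 to 4.73 in C28-F9. In nurses of C28 it ran from 1.29 in C28-N1 to 4.05 in C28-N5. Foragers of C23 were the narrowest, from 4.26 to 4.81 log2 CPM. Over the 12 sets of bees of 1 colony and caste, the SD of Kr-h1 ran from 0.22 to 1.25 log2 units.

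GB45950 was at 3.53 log2 CPM in C28-F5 and 4.67 in C28-F9, and at 3.19 in C28-N1 and 4.03 in C28-N5. Both times it was lower in the bee with the least Kr-h1 than in the bee with the most. GB54315 was at 6.13 and 7.26 log2 CPM in the same 2 foragers of C28, GB47464 at 3.72 and 4.04, and GB40892 at 5.32 and 5.79. Of the 100 members, 98 were higher in C21-F1 than in C21-F3, 100 were higher in C28-F9 than in C28-F5, and 99 in C28-N5 than in C28-N1. In foragers of C23, with the narrowest range of Kr-h1, 89 were higher in the bee with the most Kr-h1. C26 was the exception: 53 were higher in its nurse with the most Kr-h1 (2.12 log2 CPM against 1.52) and 39 in its forager with the most (4.93 against 3.93).

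Per unit of log2 Kr-h1 a member rose by a median of 0.0953 log2 units in foragers and 0.0954 in nurses. The slope ran from 0.0588 to 0.464 in foragers and from 0.0418 to 0.556 in nurses. The members' within-colony SD had a median of 0.143 log2 units in foragers and 0.134 in nurses, beside 0.166 and 0.150 over the 8281 genes of the level filter. The members were neither rare nor abundant transcripts, with a median of 5.73 log2 CPM in apiary foragers and 5.67 in apiary nurses against 5.78 and 5.80 over the same genes. The co-variation with Kr-h1 was thus made of mostly small shifts in genes whose level and spread were near the median of all genes.

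**Figure D1:**
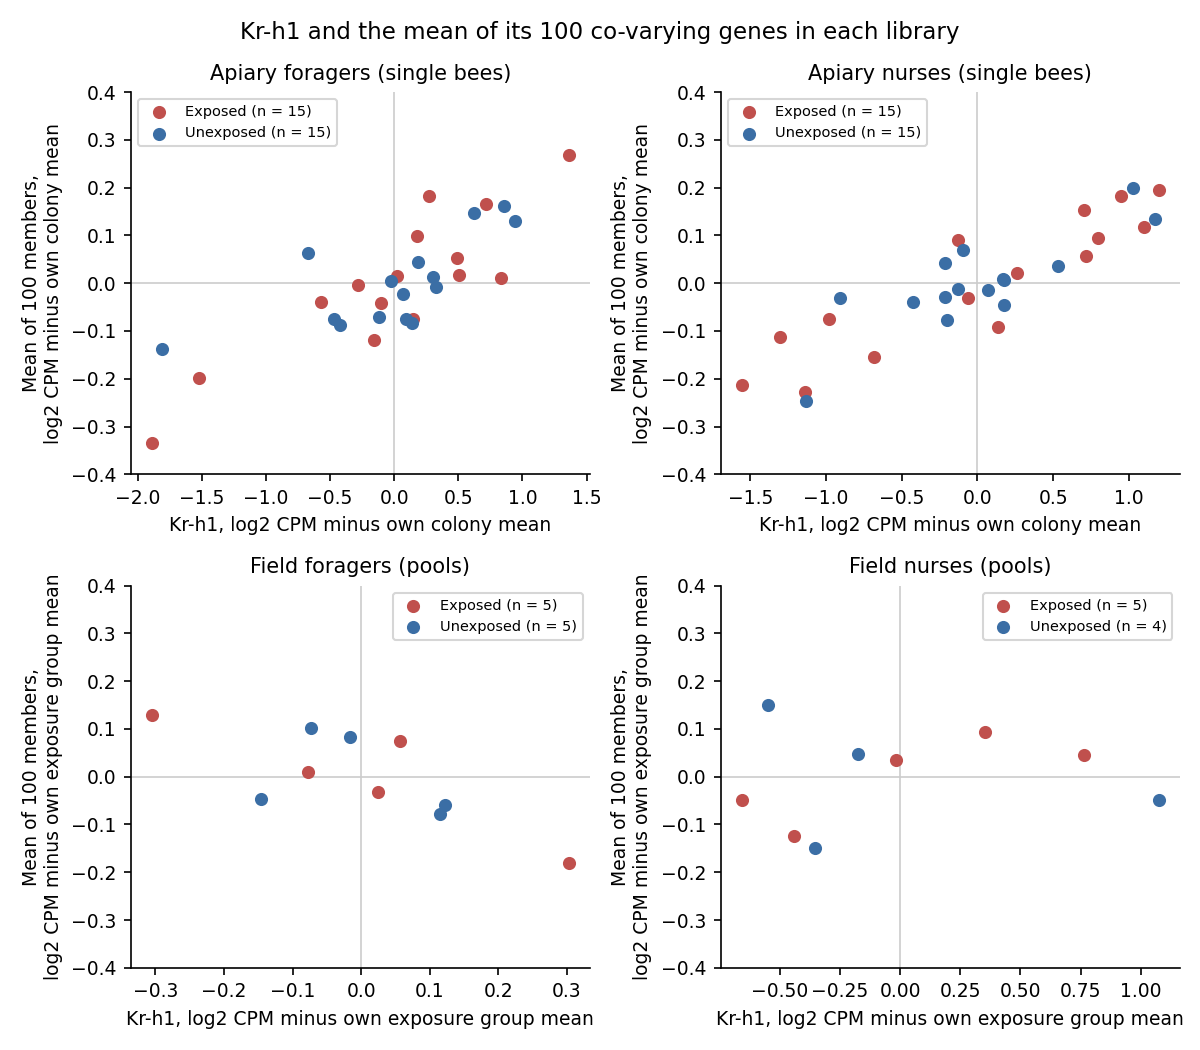
Each point is 1 library. The x axis gives Kr-h1 and the y axis the mean of the 100 members, both as log2 CPM minus the mean of the library's own colony (apiary) or own exposure group (field), in red for exposed and in blue for unexposed libraries. The rising clouds of the apiary panels show the values that chose the members (98 of 100 members were lower in C21-F3, at the lower left of the forager panel, than in C21-F1), while in the field panels, which the choice did not use, the forager pools fall to the right and the nurse pools show no single direction.

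With the exposed and the unexposed colonies taken apart, all 100 members had a positive r with Kr-h1 in each part. These bees chose the members, so this was nearly set by the choice. Over the genes of the level filter r was above 0 for 54.9% in exposed and 49.0% in unexposed foragers, and for 51.9% and 54.4% in nurses. In foragers the median r of the members was 0.64 in 15 exposed and 0.46 in 15 unexposed bees, and in nurses 0.64 and 0.62. Leaving out each colony in turn and ranking again kept 52 to 79 of the 100 members, with the fewest kept without C28 (52), C21 (55) and C27 (57). These are the colonies with the foragers of lowest Kr-h1 (1.84, 2.58 and 1.93 log2 CPM). When bees of the second sequencing run alone were ranked, 46 members were kept.

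The field pools were not used to choose the members. All 100 were in both field tables. With the mean of each exposure group subtracted, r with Kr-h1 in field forager pools was below 0 for 91 members and above 0 for 9, with a median of -0.60 over 10 pools. Over the genes of the level filter the median was -0.18, and 43.5% were above 0. In field nurse pools r was above 0 for 36 members with a median of -0.13 over 9 pools, beside -0.03 and 47.6% over the same genes. The positive co-variation with Kr-h1 seen between single bees was therefore not seen between pools of the field study, and in foragers most members ran opposite to Kr-h1. Each pool averages 5 brains, so r between pools is not the same measure as r between single bees. The SD of Kr-h1 was 0.22 log2 units in exposed and 0.12 in unexposed forager pools, and 0.58 and 0.73 in nurse pools. In foragers the count above 0 stayed between 9 and 17 without any 1 pool. In nurses it turned on 2 unexposed pools, since 87 members were above 0 without 2J6 (median r = 0.24) and 85 without 2J7 (median r = 0.19).

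Kr-h1 in exposed field foragers was 4.18 log2 CPM in pool 2J1, 4.54 in 2J2, 4.79 in 2J3, 4.51 in 2J4 and 4.41 in 2J5. The mean of the members in the same pools was 6.33, 6.28, 6.02, 6.17 and 6.21. The pool with the least Kr-h1, 2J1, thus had the highest mean of the members, and the pool with the most, 2J3, had the lowest. In unexposed foragers Kr-h1 was 5.03 in 1J7, 5.21 in 1J9, 4.95 in 2J6, 5.08 in 2J7 and 5.22 in 2J10, and the mean of the members was 6.33, 6.15, 6.18, 6.31 and 6.17. Here the pools 1J9 and 2J10, highest in Kr-h1, were the lowest in the members, and 2J6 was low in both.

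In exposed field nurses Kr-h1 was 2.80 log2 CPM in 2J1, 3.16 in 2J2, 2.15 in 2J3, 2.37 in 2J4 and 3.57 in 2J5, and the mean of the members was 5.87, 5.93, 5.79, 5.71 and 5.88. Within these 5 pools the pair lowest in Kr-h1 was also lowest in the members. In unexposed field nurses Kr-h1 was 3.49 in 1J7, 3.12 in 2J6, 4.74 in 2J7 and 3.31 in 2J10, and the members' mean was 6.05, 6.15, 5.95 and 5.85. Pool 2J7, far above the others in Kr-h1, was not high in the members, and 2J6, the lowest in Kr-h1, was the highest.

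The members nonetheless moved with each other in the field. Between pairs of members the median r was 0.44 in field forager pools and 0.59 in field nurse pools, and 76.8% and 78.5% of 4950 pairs were above 0. Over all pairs of genes of the level filter the median r was -0.01 and 0.01, with 49.7% and 50.7% above 0. Leaving out any 1 pool, an alternative added after the values were seen, left 73.0% to 82.4% of member pairs above 0 in foragers and 74.4% to 83.3% in nurses. These pairs share libraries and are not independent. In the apiary bees that chose the members, the median between pairs was 0.55 in foragers and 0.51 in nurses.

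**Figure D2:**
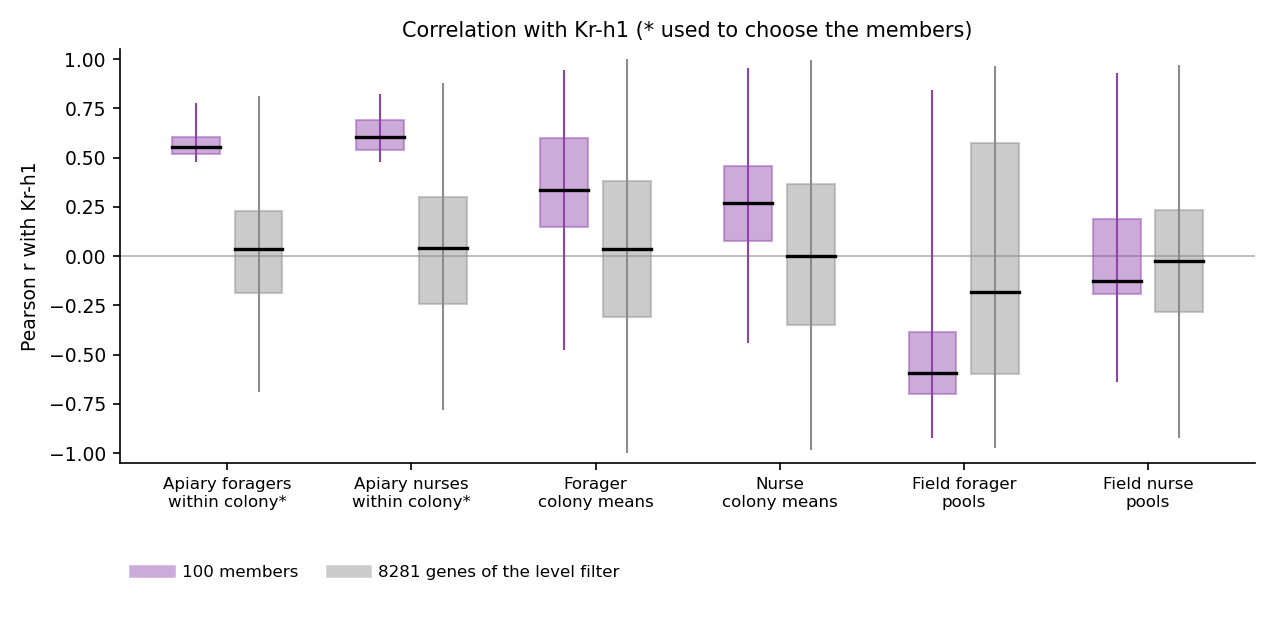
Pearson r with Kr-h1 (y axis) in 6 sets of values (x axis), for the 100 members in purple and for the 8281 genes of the level filter in grey. A box spans the 25th to the 75th percentile, the black line is the median and the thin line runs from the lowest to the highest gene. The 2 sets marked with an asterisk chose the members, and the medians of the members fall from 0.55 and 0.61 there to -0.60 and -0.13 in the field pools.

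The members were not one block in the field. The 25 members with the widest spread between bees of a colony, a split made after the values were seen, had a mean within-colony SD of 0.202 to 0.779 log2 units and a median slope on Kr-h1 of 0.254 in foragers and 0.241 in nurses. The other 75 had median slopes of 0.0877 and 0.0865. In field nurse pools 21 of the 25 had r above 0 with Kr-h1 (median 0.58), against 15 of the other 75 (median -0.16). This contrast in nurses turned on 2 pools. Of all 100 members 87 were above 0 without 2J6 and 85 without 2J7, so most of the other 75 were then above 0 too. In field forager pools 8 of the 25 had r above 0 (median -0.10), against 1 of 75 (median -0.64). Over the 100 members the field r rose with that spread (Spearman rho = 0.49 in foragers and 0.48 in nurses, across genes that share their libraries). Whether genes outside the members show the same relation was not tested. The 9 members above 0 in field foragers were all above 0 in field nurses too, and GB45950 was one of them (r = 0.02 and 0.81).

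GB45950 and GB54315, of the first 4 members, belong to the widely varying 25. In field nurses GB45950 was at 3.62 log2 CPM in 1J7, 3.54 in 2J6, 3.74 in 2J7 and 3.32 in 2J10 of the unexposed pools, and at 3.31 in 2J1, 3.36 in 2J2, 2.95 in 2J3, 3.26 in 2J4 and 3.51 in 2J5 of the exposed ones. As for Kr-h1, 2J7 was the highest of the unexposed pools and 2J3 the lowest of the exposed. GB54315 was at 6.43, 6.44, 7.07 and 6.41 log2 CPM in the same unexposed nurse pools and at 6.14, 6.17, 5.98, 6.13 and 6.40 in the exposed ones, with r = 0.93 with Kr-h1. GB47464 stayed between 3.96 and 4.34 log2 CPM over all 9 nurse pools, with r = 0.04. GB40892 ran from 5.53 to 6.21 there, with r = 0.003.

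**Figure D3:**
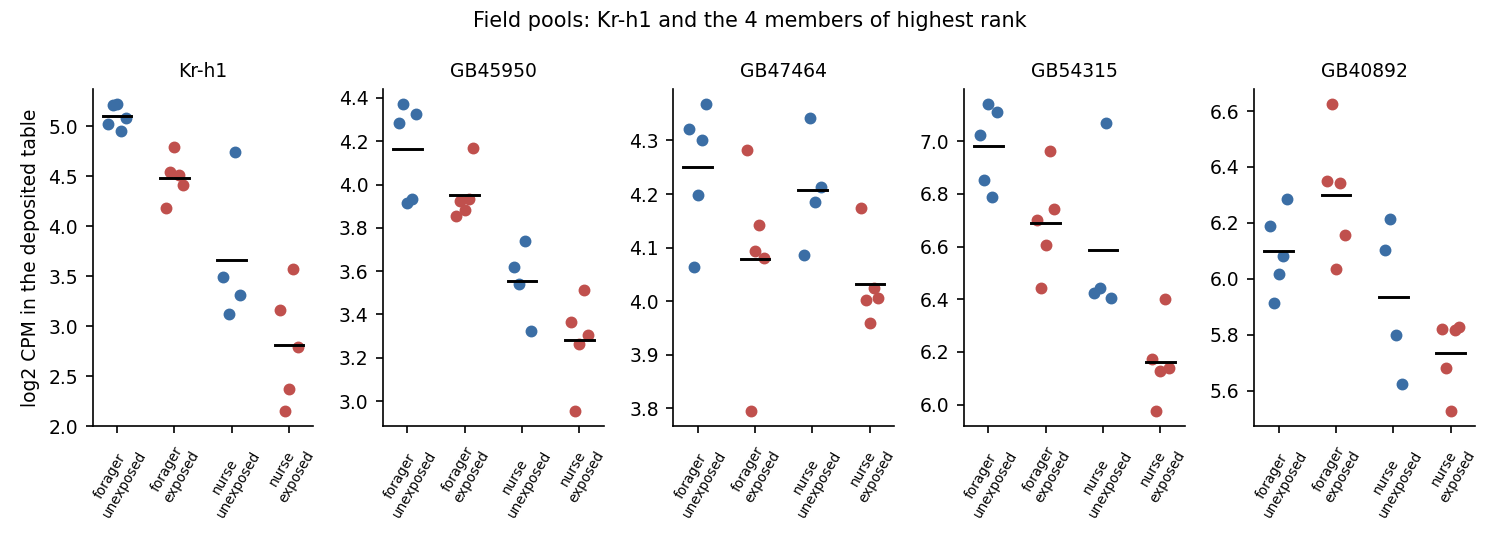
Deposited log2 CPM (y axis) of Kr-h1 and of the 4 members of highest rank in each field pool, by caste and exposure (x axis), with a black line at the group mean. Exposed pools are red and unexposed pools blue; in nurses the single unexposed pool 2J7 stands high for Kr-h1 (4.74) and for GB54315 (7.07) but not for GB47464 or GB40892. Foragers and nurses come from separately normalised tables.

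Between the 6 apiary colonies most members were higher where Kr-h1 was higher. The rule had subtracted colony means, so these means are separate values of the same bees. Over the 6 colony means r with Kr-h1 was above 0 for 81 members in foragers (median 0.33) and for 83 in nurses (median 0.27), beside 52.7% (median 0.04) and 49.8% (median -0.00) of the genes of the level filter. For 67 members it was above 0 in both castes, beside 29.1% of those genes. The count in nurses fell to 45 without C26, the colony with the least Kr-h1 in nurses (1.95 log2 CPM), and the median turned to -0.09. In foragers it stayed between 60 and 88 without any 1 colony.

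The other 15 transcription factors of the study's set of 16 mostly ran opposite to Kr-h1 between single bees. Of the 15, 13 had a negative r with Kr-h1 in both castes, with medians of -0.26 in foragers and -0.32 in nurses, and 34.7% of the genes of the level filter were negative in both. Mblk-1 (GB50048), a transcription factor first described in the mushroom bodies, the learning centres of the bee brain, had r = -0.41 and -0.24 with Kr-h1. The members' r with Mblk-1 had medians of -0.49 and -0.33, beside -0.14 and -0.07 over the genes of the level filter. The members were chosen by their r with Kr-h1 in the same bees, so these medians are not independent of that choice. How much of them the choice set was not tested. Foxp (GB40150), a forkhead factor, had r = -0.16 and -0.33 with Kr-h1. In field forager pools all 15 had a positive r with Kr-h1 (median 0.68), with Mblk-1 at 0.54 and Foxp at 0.80, and without 2J1 13 had (median 0.28). The study picked this set on its field foragers, so it is no independent evidence of direction there. In field nurse pools 12 of the 15 were above 0 (median 0.19), but 2 without 2J6 and 2 without 2J7. Most members and most of these factors thus had the opposite sign of r with Kr-h1 in field forager pools from that between single foragers. That difference was not tested.

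Foragers and nurses were compared with colony as a term, on 1 scale per study rebuilt from the reads behind the deposited values. Kr-h1 was higher in foragers in each of the 6 apiary colonies and each of the 9 field colonies with both castes, as the base of what follows. Its log2 fold change (SE, standard error) was 1.42 (SE 0.23, limma adjusted p = 3.94e-07) over 60 apiary bees and 1.52 (SE 0.20, adjusted p = 0.000465) over 18 field pools. These contrasts between castes were not used to choose the members.

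In the field pools 52 of the 100 members were higher in foragers at an adjusted p under 0.05, beside 10.9% of the 10734 genes tested, and 0 were lower, beside 10.4%. The members' median log2 fold change was 0.22, beside 0.00 over all genes, and 98 of 100 were above 0. The mean of the members was higher in foragers in 9 of 9 colonies, by 0.03 log2 units in 2J6 to 0.43 in 2J1. Leaving out each colony in turn left 36 members higher (without 2J4, beside 6.56% of all genes) to 72 (without 2J6, beside 15.3%) and 0 lower. Within the 5 exposed colonies 49 were higher, beside 8.38%. Within the 4 unexposed colonies limma called no member and hardly any gene (0.00932% higher), and 26 members were higher at an unadjusted p under 0.05, beside 5.43%, with a median log2 fold change of 0.16. Each of these samples is a whole brain or a pool, so fewer cells of a type and less RNA per cell cannot be told apart.

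GB52819 and GB52039 had the largest rises in both studies. On the joint scale of the field study GB52039 had a median of 6.13 log2 CPM over 9 forager pools (5.76 to 6.54) and of 5.18 over the 9 nurse pools of the same colonies (4.10 to 5.60), and the castes did not overlap. The difference came to 0.99 on the log2 scale (SE 0.13, adjusted p = 0.000449), with a rise in 9 of 9 colonies. GB52819 ran from 4.40 to 5.50 log2 CPM in forager pools and from 3.74 to 4.63 in nurse pools, higher in foragers in 8 of 9 colonies and overlapping. The difference came to 1.01 on the log2 scale (SE 0.13, adjusted p = 0.000465).

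Of the first 4 members, GB45950 was higher in field foragers by 0.58 (SE 0.07, adjusted p = 0.000231), GB54315 by 0.44 (SE 0.08, adjusted p = 0.00287) and GB40892 by 0.37 (SE 0.09, adjusted p = 0.0136). GB45950 was higher in foragers of 9 of 9 field colonies, from 3.84 to 4.30 log2 CPM on the joint scale against 2.97 to 3.76 in nurses, with no overlap. GB47464 was not called, at 0.03 (SE 0.08, adjusted p = 0.839), and was higher in foragers of 5 of 9 colonies. Close co-variation with Kr-h1 between single bees thus did not go with a caste difference for every member.

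In the apiary the members called higher and lower in foragers were about as frequent as among all genes, though this changed with the bees and the fit. There 29 members were higher in foragers, beside 30.4% of the 11151 genes tested, and 23 were lower, beside 29.9%. Their median log2 fold change was 0.00, beside 0.01 over all genes. With the deposited values taken as they stood 23 were higher and 42 lower, beside 24.4% and 38.3% of all genes, and with total reads as library sizes 23 and 30, beside 24.1% and 36.3%. Within unexposed colonies 32 were higher, beside 21.5%, and 4 lower, beside 20.1%. Within exposed colonies 16 were higher, beside 23.7%, and 31 lower, beside 24.2%. The interaction of caste and exposure, tested apart, called no member. With 1 mean per colony and caste 21 were higher, beside 18.1%, and 5 lower, beside 17.8%. In bees of the second sequencing run alone 28 were higher, beside 26.2%, and 9 lower, beside 24.4%. Leaving out each colony in turn left 23 (without C26, beside 29.2%) to 32 higher (without C21, beside 27.5%). It left 11 (without C28, beside 26.1%) to 30 lower (without C27, beside 29.1%).

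Most of the members that rose in apiary foragers were among the widely varying 25. Of those, 20 were higher in apiary foragers and 1, GB41915, was lower (median log2 fold change 0.46), and in the field 20 were higher and 0 lower (median 0.51), 19 of them higher in both studies. Of the other 75, 9 were higher and 22 lower in the apiary (median -0.03), and 32 were higher and 0 lower in the field (median 0.20). Over all genes 30.4% were higher and 29.9% lower in apiary foragers, and 10.9% and 10.4% in field foragers. Genes outside the members with an equally wide spread were not compared, so the pattern may not be particular to these 25. The share of all genes called in both studies is not given here. The difference between the 2 studies was not tested.

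In the apiary GB52039 ran from 6.03 to 6.27 log2 CPM over the 6 forager colony means and from 4.49 to 5.33 over the nurse ones, apart in all 6 colonies. It rose by 1.14 (SE 0.08, adjusted p = 1.50e-16) and GB52819 by 1.16 (SE 0.17, adjusted p = 1.50e-07). GB45950 rose by 0.67 (SE 0.10, adjusted p = 1.27e-07) and GB54315 by 0.49 (SE 0.09, adjusted p = 5.55e-06), while GB47464 fell by 0.12 (SE 0.03, adjusted p = 0.00185). The largest falls among members were those of GB41199, by 0.23 (SE 0.04, adjusted p = 6.96e-07), lower in foragers of 6 of 6 colonies, and of GB41915, by 0.20 (SE 0.07, adjusted p = 0.0165), lower in 5 of 6. Over the alternatives the limma adjusted p reached 0.0151 for GB41199, but 0.449 for GB41915 and 0.111 for GB47464. GB41199 and GB41915 had positive median differences over the 9 field colonies (0.08 and 0.15 log2 units) and neither was called there.

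**Figure D4:**
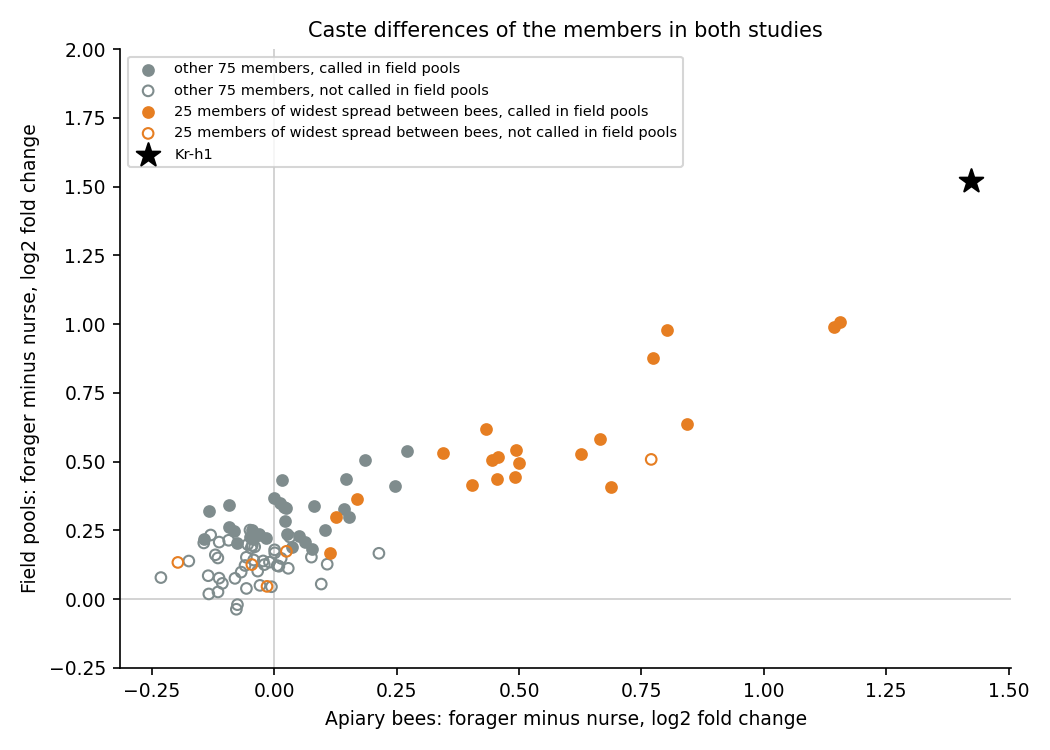
Log2 fold change of foragers over nurses in apiary bees (x axis) and in field pools (y axis). Points are the 100 members, orange for the 25 of widest spread between bees and grey for the other 75, filled where the field difference was called (52 members), and the star is Kr-h1 (1.42 and 1.52); nearly all points lie above 0 on the field axis, while on the apiary axis the grey points lie on both sides of 0.

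Exposure was compared within each table, and those contrasts were not used to choose the members. It was applied to colonies or sites, so the p-values measure the spread between these libraries only. In field foragers limma called none of the 100 members, beside 0.0% of 10976 genes, and voom on the recovered reads called none either. At an unadjusted p under 0.05, 18 members were lower in exposed pools, beside 13.5% of all genes, and 2 were higher, beside 10.7%. The members' median log2 fold change was 0.01, the same as over all genes, and 45 were below 0. Kr-h1 was -0.61 (SE 0.11, adjusted p = 0.0956), with all 5 exposed pools below all 5 unexposed pools. The study's own test, on counts in edgeR, did call genes in each caste of both studies at a corrected p under 0.05. Kr-h1, lower in these exposed foragers, was among them. The widely varying 25 had a median of -0.12 with 16 below 0, and the other 75 a median of 0.02 with 29 below 0. Without pool 2J1, 18 members were called lower, beside 12.1% of all genes, and 3 higher, beside 14.5%.

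GB45365 had the lowest unadjusted p among members there. It was at 4.82 log2 CPM in 2J1, 5.08 in 2J2, 4.85 in 2J3, 5.07 in 2J4 and 4.98 in 2J5, and at 5.30 in 1J7, 5.43 in 1J9, 5.30 in 2J6, 5.15 in 2J7 and 5.38 in 2J10. All exposed pools were below all unexposed pools. The difference came to -0.35 on the log2 scale (SE 0.08, adjusted p = 0.0956). GB49702 was likewise apart, from 5.50 to 5.75 in exposed and from 5.87 to 6.05 in unexposed pools, with -0.29 (SE 0.07, adjusted p = 0.0956). Both were called without 2J1, at adjusted p = 0.0178 and 0.0120, with adjusted p from there up to 0.232 over the alternatives. The first 4 members did not go one way, with -0.21 for GB45950, -0.17 for GB47464, -0.29 for GB54315 and 0.20 for GB40892, none of them called.

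In field nurses limma and voom called none of the members, beside 0.0% of 10852 genes. At an unadjusted p under 0.05, 8 members were lower, beside 1.69% of all genes, and 0 were higher, beside 2.5%. The members' median log2 fold change was -0.16, beside -0.01 over all genes, and 96 of 100 were below 0, beside 51.3% of all genes. Kr-h1 was -0.86 (SE 0.37, adjusted p = 0.658). Without pool 2J7 Kr-h1 was -0.50. The 8 members became 15 without 2J7 (beside 3.93%), 25 without 2J10 (beside 2.75%) and 4 without 2J3 or 2J4 (beside 0.756% and 0.691%), and the members' median ran from -0.21 to -0.09, the latter without 2J6. The small differences of the members mostly had the sign of Kr-h1, with none past the test. Because the members move together between libraries, 100 members are far from 100 separate observations of 9 pools.

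The members' mean over the 5 exposed nurse pools was 5.84 ± 0.09 log2 CPM (SD, n = 5). Over the 4 unexposed ones the lowest, median and highest pool were at 5.85, 5.999 and 6.15, so the groups overlapped. GB50076 did not overlap between groups, at 7.88 in 2J1, 8.01 in 2J2, 7.88 in 2J3, 7.98 in 2J4 and 8.25 in 2J5 against 8.32 in 1J7, 8.26 in 2J6, 8.41 in 2J7 and 8.26 in 2J10. The difference came to -0.31 on the log2 scale (SE 0.09, adjusted p = 0.658, from 0.418 to 1.00 over the alternatives). GB45159 ran from 5.83 to 6.23 in exposed and from 6.22 to 6.60 in unexposed pools, with -0.35 (SE 0.11, adjusted p = 0.658, with the same range). These were the members of lowest unadjusted p.

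In apiary foragers limma called none of the members, beside 0.00879% of 11381 genes, and voom called none. At an unadjusted p under 0.05, 6 were lower, beside 4.82%, and 1 was higher, beside 4.69%. The median log2 fold change of the members was -0.05, beside -0.00 over all genes, and 86 of 100 were below 0. The 6 became 13 without C23 (beside 8.45%), 11 without C25 (beside 5.23%), 3 without C26 (beside 2.79%) and 2 without C28 (beside 4.01%), and 3 in the second sequencing run alone (beside 6.72%). Kr-h1 was -0.05 (SE 0.31, adjusted p = 0.968), and it was 0.24 in the second sequencing run alone, where the members' median was -0.05. GB55779 had the lowest unadjusted p, from 6.48 to 7.08 log2 CPM in 15 exposed bees (median 6.78) and from 6.85 to 7.27 in 15 unexposed bees (median 6.92), overlapping. It differed by -0.21 (SE 0.05, adjusted p = 0.103) and was called without C23 (adjusted p = 0.0276), with adjusted p up to 0.884 over the alternatives. GB54521 followed with -0.13 (SE 0.05, adjusted p = 0.408).

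In apiary nurses limma called none of the members, beside 0.0532% of 11271 genes, and voom called none. At an unadjusted p under 0.05, 24 members were higher, beside 8.95%, and 0 were lower, beside 6.24%. The median was 0.07 log2 units, beside -0.00, and 9 of 100 were below 0. Exposure was given to colonies, and with colony as a random block 3 members were higher at an unadjusted p under 0.05, beside 1.66% of all genes. In the second sequencing run alone 14 were (beside 4.63%), with a median of 0.06 log2 units, and without bee C23-N1 20 were (beside 7.63%). Without 1 colony the count was 10 without C28 (beside 4.32%), 12 without C26 (beside 9.83%), 13 without C27 (beside 5.25%) and 43 without C25 (beside 9.94%). The colony means of the members' mean were 5.83, 5.82 and 5.90 in C21, C23 and C28 and 5.85, 5.70 and 5.75 in C25, C26 and C27, so unexposed C25 lay within the exposed range. GB43875 ran from 5.40 to 5.87 log2 CPM in exposed bees (median 5.69) and from 5.30 to 5.65 in unexposed bees (median 5.53), a difference of 0.15 (SE 0.04, adjusted p = 0.108, from 0.0483 to 1.00 over the alternatives). GB40031 differed by 0.17 (SE 0.05, adjusted p = 0.116, from 0.0458 to 1.00). Kr-h1 was 0.05 (SE 0.32, adjusted p = 0.954).

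**Figure D5:**
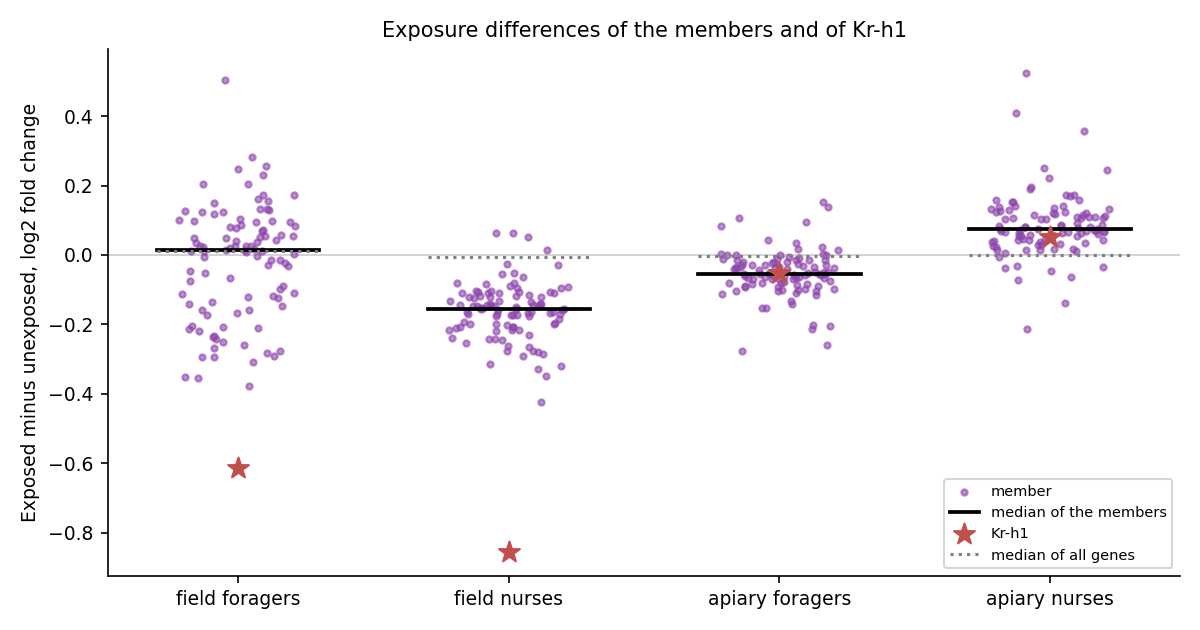
Log2 fold change of exposed over unexposed libraries (y axis) in the 4 tables (x axis). Each purple point is a member, the black line is the median of the members (0.01, -0.16, -0.05 and 0.07), the dotted line is the median of all genes and the star is Kr-h1; in field foragers the star (-0.61) lies far below the members.

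Whether the exposure difference was the same in both castes was tested by an interaction on the joint scale. This fit had no colony term, although foragers and nurses came from the same colonies. It took each library as a separate replicate, and for apiary bees no alternative used colony as a block. In apiary bees no member was called, beside 0.0% of 11151 genes. At an unadjusted p under 0.05, 32 members were lower, that is with a smaller exposed minus unexposed difference in foragers than in nurses, beside 8.98%, and 0 were higher, beside 5.52%. The median was -0.13, beside -0.00 over all genes, and 94 of 100 were below 0. GB44520 differed by -0.28 (SE 0.08) and GB41889 by -0.43 (SE 0.12), both at adjusted p = 0.178. Without C23, 6 members were called lower, beside 2.04% of all genes. The 32 became 17 with total reads as library sizes (beside 7.16%), 15 without C26 (beside 7.62%), 15 without C28 (beside 4.63%), 19 without C27 (beside 5.86%) and 58 without C25 (beside 10.1%). Exposure was given to colonies, and the forager minus nurse difference of the members' mean was 0.08 in C21, 0.07 in C23 and -0.05 in C28 against 0.06 in C25, 0.29 in C26 and 0.17 in C27, so the groups of colonies overlapped. In field pools no member was called, beside 0.0% of 10734 genes, with 6 members higher at an unadjusted p under 0.05, beside 1.6%, and 2 lower, beside 5.26%. The 6 ran from 1 without 2J4 to 18 without 2J3 (beside 0.699% and 2.67%). The median there was 0.15 (0.08 without 2J6), beside -0.01, and GB45522 (0.51, SE 0.18) and GB44374 (0.44, SE 0.18) had the lowest unadjusted p, both at adjusted p = 0.696.

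The reads in genes ran from 10.5 M to 45.1 M per library, with the fewest in nurse C23-N1. Kr-h1 had 63 to 1377 reads per apiary bee and 113 to 1273 per field pool. Within colonies Kr-h1 did not follow the reads of a library in foragers (r = 0.09, permutation p = 0.711, rho = 0.07, p = 0.760, n = 30) or nurses (r = -0.17, permutation p = 0.530, rho = -0.10, p = 0.632, n = 30). Without the 2 bees farthest from the median in reads r was 0.04 and 0.10. The mean of the members gave r = -0.04 (p = 0.879) and -0.26 (p = 0.222) by the same permutation test, and the adjusted p was 0.879 for each of the 4 relations. Of the exposed apiary bees 7 foragers and 6 nurses were in the first of 2 sequencing runs and of the unexposed ones 0 and 1. The unexposed forager pool 1J9 was the only field library in that run. Of the colonies and castes that hold both runs, 3 of 4 set 1 bee against 4, so the part of the run in Kr-h1 was not tested.

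In apiary foragers and in both castes of the field study the members also moved with the broadest difference between libraries. The first principal component of the genes of the level filter held 27.5% of the variance between apiary foragers of a colony, and its r with the mean of the members was 0.75 in size. In apiary nurses the second component (14.2% of the variance) had the closest relation, 0.67 in size. In the field the first component held 59.6% of the variance in foragers and 57.7% in nurses, and its r with the mean of the members was 0.74 in size in both. With Kr-h1 it was 0.82 in size in field foragers and 0.25 in field nurses. With the first component removed from each apiary table, an alternative added after the values were seen, 43 of the 100 members were kept. The part of these components in the results was not tested, and the markers of other cell types could not be matched to identifiers in the sources used here.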

How the data were processed

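Brain RNA was sequenced from 79 libraries: 60 single apiary bees and 19 field pools of 5 brains. Per the labels and the methods of the study, the authors trimmed reads with Trimmomatic 0.36, aligned and counted them with STAR on amel 4.5 with Official Gene Set 3.2, dropped low genes, and scaled by trimmed mean of M-values in edgeR under R 3.6.3. The deposited values are log2 CPM with a small prior count, normalised separately in 4 tables. Whole reads were recovered from the steps of these values (100% of values under 20000 reads lay within 0.1 of a whole number). The lowest value of each library was taken as 0 reads, which that check cannot test. It was 0.134 CPM in field forager pool 1J9 and 0.0754 in the other field forager pools, so the reads of 1J9 may be set slightly too low.

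Members were ranked as the report states, and 3 forager columns whose names fit no single label were tied to their group and colony. Exposure was fitted per table with limma 3.58.1 (trend) on the deposited values. Caste was fitted with colony as a term on log2 CPM recomputed from recovered reads (library sizes by median of ratios, prior count 0.5). Caste by exposure was fitted as an interaction on the same values, without a colony term. The Benjamini-Hochberg adjustment ran across every gene in a fit, and 0.05 was the threshold. The permutation tests used 100000 resamples within colonies and were two-sided. Nothing in the sources says that bees of 1 colony are independent replicates of a treatment given to colonies.

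The genes named are Kr-h1, the 4 members of highest rank, the genes on either side of the cut and, per comparison, at most 2 up and 2 down of the largest called members (or of lowest unadjusted p where fewer than 3 were called). The members and lists were chosen with earlier results of these data known. Of the 11525 identifiers 0 were in the reference table of gene names, so gene lists and cell type markers were not tested. Alternatives were other scalings, filters, pseudocounts, voom, colony blocks and means, the second run alone and leaving out each colony or pool. The scripts were tested on simulated data.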

Additional observations from a re-analysis of the deposited data

Results flagged for a closer look

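In 56 groups of 4 to 10 libraries the lowest and highest value were checked for a gap to the rest, and 4 were flagged, where chance flags about 1 in 20 groups. Bee C21-F3, among 5 exposed foragers of its colony, had Kr-h1 at 2.58 log2 CPM, with the others from 4.65 to 5.19. Bee C26-F5, among 5 unexposed foragers of its colony, had Kr-h1 at 3.93 log2 CPM, with the others from 4.67 to 4.93. Field nurse pool 2J7 had GB54315 at 7.07 log2 CPM, with the other 3 unexposed pools from 6.41 to 6.44. Field forager pool 2J5 had GB45950 at 4.17 log2 CPM, with the other 4 exposed pools from 3.85 to 3.93.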

How the results depend on the processing

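Most values stayed near the main one (790 values, against 26 that moved, 14 with a changed sign, 10 that lost and 8 that gained a call). For single genes and for r with reads, staying meant the same sign and side of the threshold. For counts it meant a ratio within a set limit, and for the members' medians a shift below the SD between libraries. Medians near 0 could so change sign and still count as stayed, as for exposure in field foragers (-0.03 to 0.06 without 1 pool) and caste in apiary bees (-0.02 to 0.03 without 1 colony). Of the 100 members, 64 were kept with Spearman correlation, 46 without subtracting colony means, 46 in the second run alone, 43 with the first principal component removed, and 52 to 79 without 1 colony. Members lower in apiary foragers numbered 42 with the deposited values as they stood (38.3% of all genes), 4 in unexposed colonies (20.1%) and 5 with paired colony means (17.8%). They numbered 9 in the second run (24.4%), and with 1 colony left out from 11 (without C28, 26.1%) to 30 (without C27, 29.1%). Members higher numbered 16 in exposed colonies (23.7%). In field pools 0 were higher in unexposed colonies alone, where 0.00932% of all genes were. Without a replicate block (colony term), 30 members were higher and 23 lower in apiary foragers, beside 29.4% and 29.3% of all genes. In field foragers 51 and 0 were, beside 10.5% and 9.52%. With colony as a random replicate block, exposure called 0 members in either apiary table, beside 0.00879% of all genes in foragers and 0% in nurses.

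Leaving out 1 pool or colony gave 9 to 17 members with r above 0 in field foragers, 29 to 87 in field nurses and 45 to 89 over nurse colony means. By exposure in field foragers it gave 0 to 3 members called higher and 0 to 18 lower. The 3 and the 18 came without 2J1, beside 14.5% and 12.1% of all genes. In apiary foragers 0 to 1 were called lower (1 without C23, beside 0.202%). In apiary nurses 0 to 2 were called higher (1 without C21, beside 0.373%, and 2 without C23, beside 0.994%). In the apiary interaction 0 to 6 were called lower (6 without C23, beside 2.04%). Kr-h1 exposure differences ran from -0.28 to 0.33 in apiary foragers (0.24 in the second run) and from -0.35 to 0.36 in apiary nurses (-0.029 with voom and -0.027 without C23-N1). The Kr-h1 interaction ran from -0.43 to 0.51 in the apiary and from -0.13 to 0.45 in the field, the caste difference of GB47464 in the field from -0.0011 to 0.086, and r of Kr-h1 with reads from -0.014 to 0.19 in foragers and -0.29 to 0.030 in nurses. The cause of these changes was not tested.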
